A study of Mus musculus with 2 samples.

Results

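The miR-23, miR-27 and miR-24 clusters are a pair of paralogous groups of microRNAs, and 5 of the 739 rows on the array measure their 3p arms. The rule names accessions and sets no limit on their values, although the set was proposed with earlier results of these arrays known: MIMAT0000532 (miR-23a-3p), MIMAT0000537 (miR-27a-3p), MIMAT0000125 (miR-23b-3p), MIMAT0000126 (miR-27b-3p) and MIMAT0000219 (miR-24-3p). MIMAT accessions are the identifiers that the miRBase registry gives to mature miRNAs. Each accession was found in 1 row, and no member shared its row with another accession. RNA came from CD4+ T cells (helper T cells) of female C57BL/6 mice aged 10 weeks with the genotype IL-10 +/-, which leaves 1 working copy of the gene for the anti-inflammatory cytokine interleukin 10. Spleen and lamina propria, the connective tissue beneath the gut epithelium, each gave 1 array, and both arrays share sex, strain, age and genotype. No array of wild-type or IL-10 -/- mice is part of the comparison. Per the labels' protocols, collagenase was used to free the lamina propria lymphocytes, and a magnetic sort (MACS) took CD4+ cells from each tissue, so the tissue and the enzyme step cannot be told apart. The labels do not say how many mice were pooled for an array. With n = 1 per tissue no value has an error, no test or p-value was possible, and no difference can be set against a spread between replicates. The purity of the CD4+ cells was not assessed, because marker miRNAs of other cell types could not be matched to accessions.

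A microRNA is a short RNA that guides Argonaute proteins to messenger RNAs, mainly through pairing of its seed (bases 2 to 8 from the 5′ end), and lowers their stability and translation. The miR-23, miR-27 and miR-24 miRNAs are cut from hairpins that lie close together and are transcribed as 1 precursor from each cluster. In mouse T cells this family is known to restrain T helper cytokine programmes: miR-24 and miR-27 limit Th2 cytokines, with the mRNA of interleukin 4 a known target of miR-24 and that of the transcription factor GATA3 a known target of miR-27. Members of the miR-23 family are known for limiting inflammatory signalling and cell death pathways. Forced expression of miR-27 in T cells is known to impair regulatory T cells.

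The sequences are shown because they decide what the array can tell apart. They were taken from RefSeq on mouse build GRCm38.p6, where mature sequences for 4 of the 5 members were matched by name, and the seed is in capitals in each. miR-23b-3p was not matched.
miR-23a-3p: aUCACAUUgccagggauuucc
miR-27a-3p: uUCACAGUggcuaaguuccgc
miR-27b-3p: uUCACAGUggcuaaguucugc
miR-24-3p: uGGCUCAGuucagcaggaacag
On the plus strand of chromosome 8, in the cluster called a here, miR-23a-3p lies at chr8:84208563-84208583, miR-27a-3p at chr8:84208727-84208747 and 1 copy of miR-24-3p at chr8:84208875-84208896. In the cluster called b, on the plus strand of chromosome 13, miR-27b-3p lies at chr13:63300760-63300780 and the other copy of miR-24-3p at chr13:63301251-63301272. The b cluster also holds the Mir23b hairpin, at chr13:63300484-63300557. The 3 hairpins of cluster a span 404 bases, and those of cluster b span 792. By the RefSeq gene table the hairpins of cluster b lie within the span of Aopep, a gene for an aminopeptidase, and those of cluster a overlap no protein-coding gene. Whether the b hairpins are exonic or intronic was not determined, since no exon table was used.

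miR-27a-3p and miR-27b-3p are each 21 bases long and differ by the single substitution C19U (miR-27a-3p base first, counted from the 5′ end), which is outside the seed. In the first 8 bases, miR-23a-3p and miR-27a-3p differ by A1U and U7G, so their seeds differ at 1 base. Among 1679 mature miRNA names in the RefSeq table, the miR-27 seed UCACAGU was found in 2, miR-27a-3p and miR-27b-3p. The miR-24 seed GGCUCAG was found in 5 names. Probes for paralogs that differ at 1 base may bind each other's target, so the a and b rows of a pair may share signal. How far the probes of this array do so was not tested.

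miR-24-3p cannot be assigned to a cluster at all, which the hairpins show, with the 3p arm in capitals.
Mir24-2 (cluster a): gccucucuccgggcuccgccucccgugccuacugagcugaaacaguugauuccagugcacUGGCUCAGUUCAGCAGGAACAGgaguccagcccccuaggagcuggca
Mir24-1 (cluster b): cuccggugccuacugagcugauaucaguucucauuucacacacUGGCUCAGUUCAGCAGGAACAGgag
The precursors differ around the arm, and the mature miRNA that the array reads is the same from both.

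Each deposited value is a linear intensity in arbitrary units. Different probes bind with different strength, so each value is compared with the same row on the other array and not with other rows as an amount of RNA. All 5 members had a value on both arrays. The lowest member value was 144.12 in spleen, 103.7 times the lowest value listed there (1.39), and 89.04 in lamina propria, 30.9 times the lowest value there (2.88). All 5 were also in the upper 25% by mean log2 level of the 353 rows listed on both arrays.

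On the deposited scale the 5 members had similar intensities in spleen and lamina propria CD4+ T cells. The miR-23 and miR-24 rows differed by 3.59% to 5.15% between the tissues. Both miR-27 rows were lower in lamina propria on this scale, by 1.33-fold and 1.62-fold, and higher after quantile normalization or once the trend with level was taken out. The log2 ratios of lamina propria over spleen spanned 0.75, from -0.69 to 0.05, and their median was -0.08, or 1.05-fold lower in lamina propria. Fewer cells that hold a miRNA and less of it per cell cannot be told apart in such bulk RNA. By a 2-fold rule, 0 of the 5 members were lower and 0 were higher. The same rule took in 41.2% of the upper 50% by mean level (177 rows) as lower and 15.3% as higher, around a median log2 ratio of -0.59. Over all 353 rows listed on both arrays it took in 25.8% as lower and 16.1% as higher, around a median of 0.01.

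**Figure D1:**
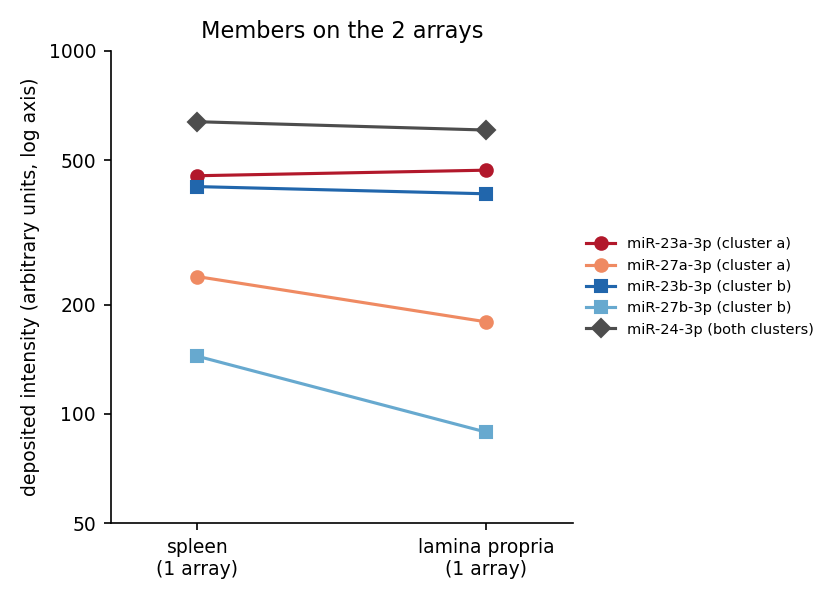
Deposited intensity (arbitrary units, log axis) of the 5 members on the spleen array and the lamina propria array, 1 point per array with no error. The lines of miR-23a-3p, miR-23b-3p and miR-24-3p are nearly level, and those of miR-27a-3p and miR-27b-3p run down to 179.2 and 89.04 in lamina propria.

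miR-24-3p, the member shared by both clusters and a known brake on interleukin 4, read 637.63 on the spleen array and 604.79 on the lamina propria array. Its log2 ratio was -0.08, which is 5.15% lower in lamina propria.

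miR-23a-3p read 452.67 in spleen against 468.93 in lamina propria. It was the only member with the higher value in lamina propria, by 3.59% (log2 ratio 0.05). Its paralog miR-23b-3p, known for limiting inflammatory cytokine signalling, read 422.55 in spleen against 403.68 in lamina propria. That is 4.47% lower in lamina propria, with a log2 ratio of -0.07. The ratios of the miR-23 paralogs therefore differed by 0.117 on the log2 scale, or 1.08-fold.

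miR-27a-3p, whose family is known to repress GATA3, read 238.82 in spleen against 179.2 in lamina propria, where it was thus 1.33-fold lower (log2 ratio -0.41). miR-27b-3p read 144.12 in spleen against 89.04 in lamina propria, 1.62-fold lower there (log2 ratio -0.69). The latter is the lowest ratio of the 5 and still within 2-fold. The ratios of the miR-27 paralogs differed by 0.28, or 1.21-fold, again with the a row above the b row.

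The a and b clusters were set against each other through these ratios, because the difference of a pair of log2 ratios does not change with 1 scaling factor between the arrays. In both paralog pairs the a member had the higher ratio of lamina propria over spleen, by 0.117 for miR-23 and by 0.28 for miR-27. The difference between the miR-23 and miR-27 families was larger than that between clusters on the deposited scale. In cluster a the ratio of miR-23a-3p was 0.465 above that of miR-27a-3p, and in cluster b the ratio of miR-23b-3p was 0.629 above that of miR-27b-3p. Summed over the miR-23 and miR-27 rows of each cluster, intensity went from 691.5 in spleen to 648.1 in lamina propria for a (log2 ratio -0.09), and from 566.7 to 492.7 for b (log2 ratio -0.20). These sums are weighted by the brighter miR-23 probes. After quantile normalization the a minus b difference was 0.038 for miR-23 and -0.096 for miR-27, and the family differences were 0.136 in cluster a and 0.002 in cluster b, so the order by family was present on the deposited scale and was nearly lost there. After removal of the trend of the ratio with level, the a minus b differences were 0.078 and 0.166 and the family differences 0.19 and 0.278. Without replicates it is unknown whether differences of these sizes exceed the error between arrays.

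Among all 10 pairs of members, the log2 ratios lay between 0.01 and 0.75 apart. The median gap between any pair of rows of the upper 50% was 1.42. The 10 gaps come from only 5 rows, whose paralogs may share signal, so they are no evidence that the members vary together. miR-23b-3p and miR-24-3p were closest, and miR-23a-3p and miR-27b-3p were farthest apart. The median ratio was lower in sets limited to brighter rows. It was 0.01 over all rows listed on both arrays, -0.59 in the upper 50% and -1.16 in the upper 25%. These sets are nested, so their medians do not give the trend at the members' own levels. The accessions numbered below 1000 had medians of -1.53 and -1.62 in the upper 50% and the upper 25%. Those numbered 1000 or above had medians of 0.11 (98 rows) and 0.27 (43 rows) there. Rows numbered below 1000 made up 128 of all 353 rows, 79 of the 177 in the upper 50% and 46 of the 89 in the upper 25%. That range was picked in earlier work on these arrays for its low ratios, so its low medians follow from the choice. On the deposited scale the 2 dimmest of the 5 members, miR-27a-3p and miR-27b-3p, had the lowest ratios. After the trend with level was taken out, miR-27b-3p was still lowest at 0.29, followed by miR-24-3p at 0.42 and miR-27a-3p at 0.46.

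**Figure D2:**
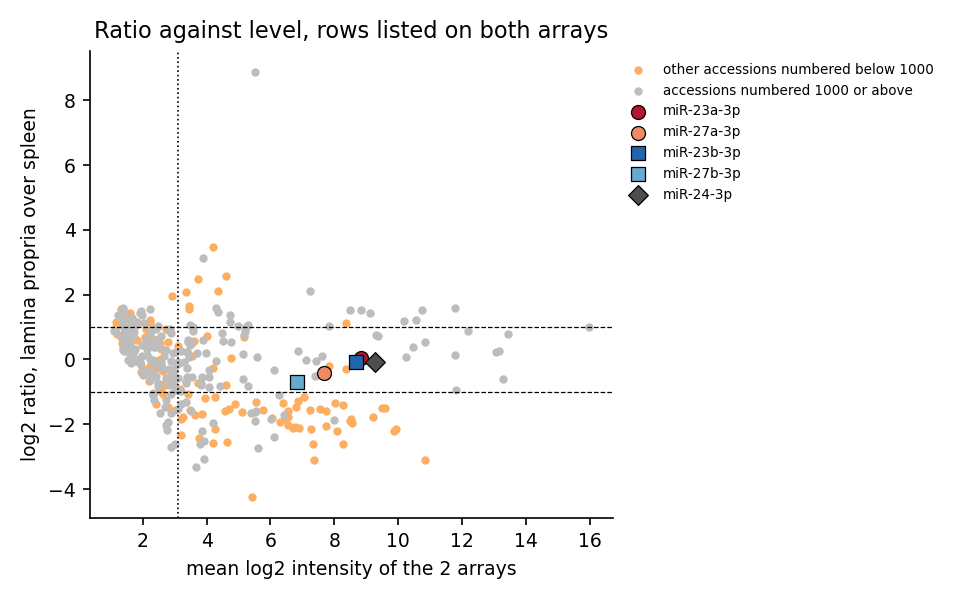
Log2 ratio of lamina propria over spleen against mean log2 intensity for the 353 rows listed on both arrays, with the members enlarged, dashed lines at 2-fold and a dotted line at the start of the upper 50%. The members lie inside the 2-fold lines at high mean level. Within the upper 50% they lie above most other rows with accession numbers below 1000, a range picked earlier for its low ratios.

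The members held a middle place among the brighter rows of the array. In the upper 50% by mean level, 61.6% of rows had a lower ratio than miR-23a-3p. The corresponding shares were 59.3% for miR-23b-3p, 58.8% for miR-24-3p, 53.1% for miR-27a-3p and 47.5% for miR-27b-3p. The ratio of miR-23a-3p was 0.64 above the median of these rows, and that of miR-27b-3p was 0.11 below it. In the upper 25%, which holds all 5 members, the shares were 66.3%, 62.9%, 61.8%, 57.3% and 53.9% in the same order. The median log2 ratio there was -1.16, so all 5 lay above it. Within 2-fold lay 43.5% of the upper 50%, so being within 2-fold is by itself common there. In the upper 25% the share within 2-fold was 33.7%, with 51.7% lower and 14.6% higher.

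The members' ratios lay higher among the miRNAs that share their low accession numbers. All 5 have numbers below 1000, a range that tends to mark miRNAs described early, and that was picked in earlier work on these arrays because its rows were low in lamina propria. Of the 74 other rows of this range in the upper 50%, the 2-fold rule took in 54 (73.0%) as lower in lamina propria and 8 (10.8%) as higher and left 12 between, around a median log2 ratio of -1.57. In the upper 25% by mean level, where all 5 members lie, it took in 37 of the 41 other such rows (90.2%) as lower and 1 (2.44%) as higher and left 3 between, around a median of -1.78. Read against those 74 other rows of the upper 50%, the ratio of miR-23a-3p was 3.08-fold above their median, that of miR-23b-3p 2.84-fold, that of miR-24-3p 2.82-fold, that of miR-27a-3p 2.23-fold and that of miR-27b-3p 1.84-fold. These folds are not changed by 1 scaling factor between the arrays. Because the range was picked for its low ratios, its low median was fixed by that choice, and the members' excess over it and their larger share of its signal follow in part from it. They are descriptions and no evidence that the members stand apart, and among all rows of the upper 50% the members were in the middle. The members together made up 7.09% of the summed intensity of this range on the spleen array, against 19.5% on the lamina propria array, a share 2.75 times as large. Of the summed intensity of the whole array they held 1.39% in spleen and 0.957% in lamina propria. These shares depend on the brightest row of each array, at 45486.89 of 136231.9 in spleen and 92004.36 of 182480.7 in lamina propria. The other rows of the range summed to 24826.7 on the spleen array against 7223.4 on the lamina propria array, and the members to 1895.8 against 1745.6.

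**Figure D3:**
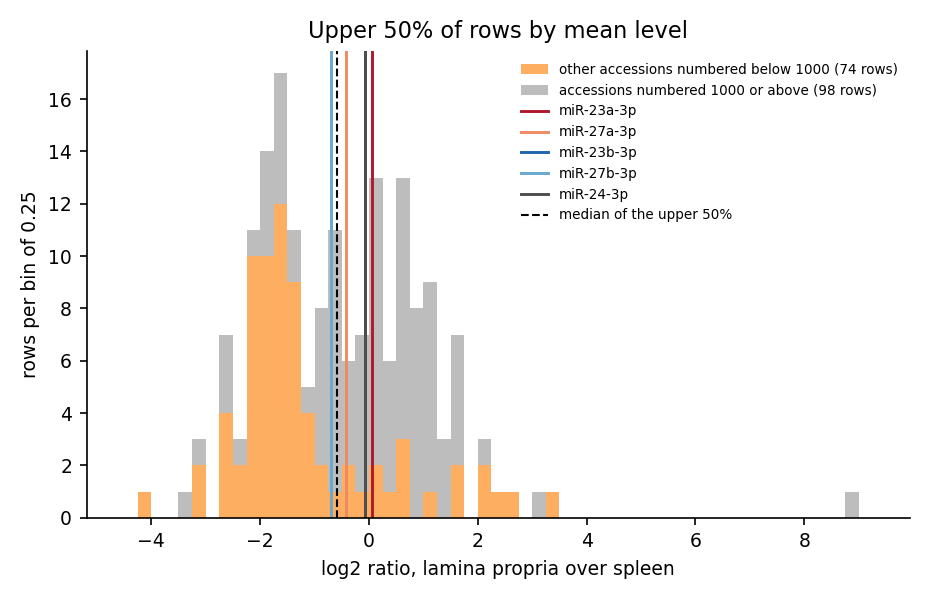
Number of rows per bin of 0.25 in log2 ratio of lamina propria over spleen, for the 172 rows of the upper 50% other than the members, stacked by accession number. Coloured lines mark the 5 members (the lines of miR-23b-3p and miR-24-3p nearly coincide) and the dashed line the median of -0.59. The members lie to the right of the main mass of rows numbered below 1000, a range picked earlier for its low ratios.

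Brightness ranks, which do not depend on any scaling that keeps the order of rows, put each member slightly higher on the lamina propria array. Among the 353 rows listed on both arrays, miR-24-3p was 26th in spleen and 23rd in lamina propria, and miR-23a-3p went from 33rd to 25th. miR-23b-3p went from 35th to 30th, miR-27a-3p from 47th to 41st and miR-27b-3p from 67th to 54th. All 5 thus moved up, by 3 to 13 places, although 4 of the 5 had the lower intensity in lamina propria. How many other rows moved up was not counted, so these moves have no background beside them. The upper 25%, where the members lie, had a median log2 ratio of -1.16, below that of every member. The moves are therefore descriptions and no evidence that the members stand apart from other bright rows. The largest move in places was that of miR-27b-3p, the dimmest member and the one with the lowest ratio. Places at different ranks are not equal steps in intensity, so the moves of different members cannot be compared in size.

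The direction of the tissue difference was therefore not fixed by these data. Equal medians over the rows listed on both arrays shifted each log2 ratio up by 0.43, and 4 of the 5 members were then higher in lamina propria, with miR-27b-3p at -0.27. Setting the total signal equal lowered every ratio by 0.42, as the lamina propria array summed to 1.34 times the spleen array. All 5 were then lower, with miR-27b-3p at -1.12 past the 2-fold rule. The median of the upper 50% was itself at -1.01 under this scaling. That total depends strongly on 1 row, the brightest, which held 92004.36 of the 182480.7 units on the lamina propria array. With the 10 brightest rows left out of the total, each ratio instead rose by 0.47, and 4 of the 5 were higher. Quantile normalization put all 5 higher, at 0.30 to 0.61, and so did taking out the trend with level, at 0.29 to 0.65. The median of the upper 50% was -0.16 with medians set equal and -0.12 with the 10 brightest rows left out of the total. After quantile normalization it was 0.0, and after the trend was taken out -0.12. No member was at least 2-fold higher under any of the 8 alternatives of scaling or offset, and miR-27b-3p with the totals set equal was the only member at least 2-fold lower. The share of all rows past 2-fold was not counted under these alternatives, so the member counts have no background beside them.

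**Figure D4:**
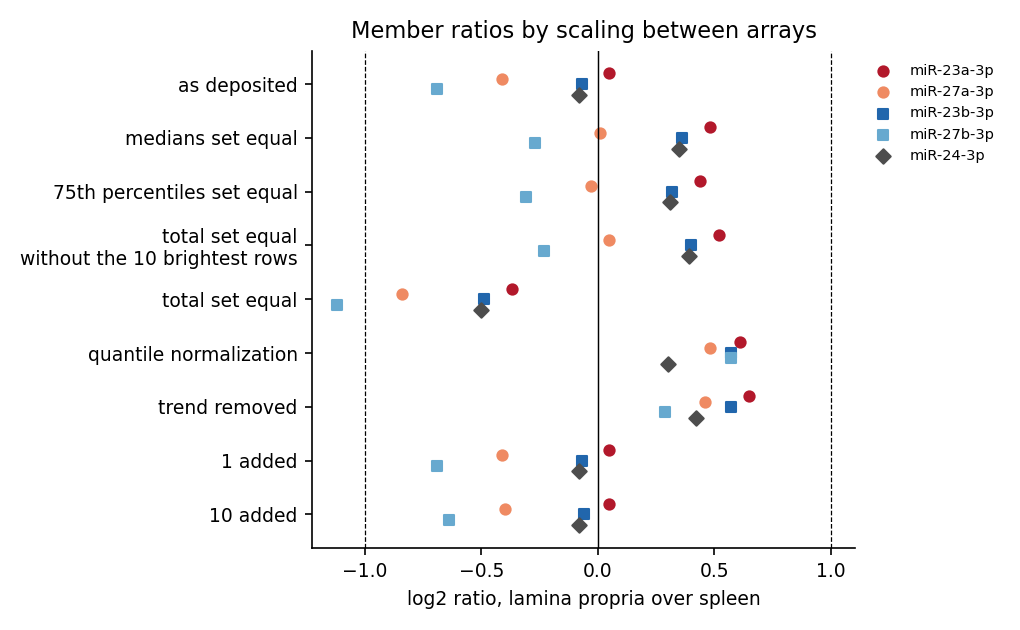
Log2 ratio of lamina propria over spleen for each member as deposited and under 8 alternatives, with a solid line at 0 and dashed lines at 2-fold. Each of the 4 single scaling factors moves all members by the same constant. miR-27b-3p lies above 0 only after quantile normalization or removal of the trend. All points stay inside the 2-fold lines, except miR-27b-3p at -1.12 with totals set equal.

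Rows most like each member were sought as the 2 with the smallest Euclidean distance over both log2 intensities, that is over 2 arrays. The row closest to miR-23a-3p was miR-23b-3p and the reverse, at a distance of 0.238, and the second closest to miR-23a-3p was miR-24-3p, at 0.616. Over the 5 members, 3 of the 10 nearest rows were themselves members. The other 7 had log2 ratios between -1.28 and 0.76, and 4 of them had accession numbers below 1000. The closest of these was MIMAT0000531, at a distance of 0.237 from miR-27a-3p, with readings of 242.83 (spleen) and 210.97 (lamina propria). The reference tables do not name it. Over 2 arrays this distance mixes brightness and tissue ratio.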

How the data were processed

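The table holds linear intensity values that the authors deposited, 1 column per array; per the labels' protocols the RNA was labelled with Hy5 using an Exiqon miRCURY kit. Neither the labels nor the table state the background subtraction, the scaling or why rows are blank (516 were listed in spleen, 378 in lamina propria). The names of the 5 members came with their accessions; the reference tables paired 0 accessions with names, so the lists of other arms, T helper miRNAs and cell type markers could not be applied. Ratios are log2 of lamina propria over spleen, with no pseudocount or further scaling. Named rows were the 5 members and the 2 nearest rows of each. The members and lists were chosen with earlier results of these data known. Alternatives were 4 single scaling factors, quantile normalization, subtraction of a lowess fit of ratio on level (fraction 0.5) and offsets of 1 or 10. The counting was tested on simulated data. Python 3.11.15, numpy 2.4.6, pandas 2.3.3 and statsmodels 0.14.6 were used. The number of arrays, 1 per tissue, limits the precision.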

Additional observations from a re-analysis of the deposited data

How the results depend on the processing

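A log2 ratio was taken as moved when its sign changed or it shifted by over 1.5-fold, since no replicate spread exists, and a percentile when it shifted by over 10 points. With medians set equal, log2 ratios were 0.01 for miR-27a-3p, 0.36 for miR-23b-3p, 0.35 for miR-24-3p and 0.35 for the members' median. With 75th percentiles set equal, miR-23b-3p was at 0.32, miR-24-3p at 0.31 and the median at 0.31. With the total set equal without the 10 brightest rows, miR-27a-3p was at 0.05, miR-23b-3p at 0.40, miR-24-3p at 0.39 and the median at 0.39. With totals set equal, miR-23a-3p was at -0.37 and 1 member was at least 2-fold lower, beside a median of -1.01 in the upper 50%. These settings add 1 constant to all ratios. After quantile normalization, miR-27a-3p was at 0.48, miR-23b-3p at 0.57, miR-27b-3p at 0.57, miR-24-3p at 0.30, the median at 0.57 and the a minus b difference of miR-27 at -0.096. After trend removal, miR-23a-3p was at 0.65, miR-27a-3p at 0.46, miR-23b-3p at 0.57, miR-27b-3p at 0.29, miR-24-3p at 0.42 and the median at 0.46, and the percentile of miR-27b-3p was 57.6. The cause of these last changes was not tested. At 1.5-fold, 1 member was lower. The share of all rows lower at 1.5-fold was not counted, and the median of the upper 50% was itself about 1.5-fold lower. Percentiles of miR-23a-3p, miR-27a-3p, miR-23b-3p, miR-27b-3p and miR-24-3p, in this order, were 50.4, 37.1, 45.9, 31.4 and 45.6 among all rows listed on both arrays, and 81.0, 73.4, 79.7, 72.2 and 78.5 among rows numbered below 1000 in the upper 50%. Among such rows in the upper 25%, a setting chosen after seeing the data, they were 93.5, 82.6, 91.3, 80.4 and 89.1. The other 67 of 109 recomputed values did not move by these rules. Some of them could not, such as the a minus b differences under a single scaling factor, so the count is no measure of stability. No paired analysis was possible because there is only 1 array for each tissue, which also means that leaving out a replicate was not an option. Signal over background of the arrays is unknown.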
